A study of Mus musculus with 6 samples.

Results

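The response of the mouse leukemia line BCRF8C to the kinase inhibitor BGJ398 was described by setting the library grown with the inhibitor against the library grown with its solvent DMSO. Of the 17169 gene entries in the deposited table, the 13814 whose mean over those 2 libraries reached at least 1 FPKM (a fragment count corrected for transcript length and library size) were kept. For each entry the log2 ratio of (FPKM + 1) with BGJ398 over (FPKM + 1) in DMSO was taken, a scale that compresses the differences of weakly expressed genes. The same ratio was also read after a smooth trend of the ratio on the mean level of a gene (loess) had been subtracted, and that second value is called the trend-removed ratio below. BCRF8C is a cell line from bone marrow of Balb/c mice ill with SCLL (stem cell leukemia and lymphoma), a disease driven by fusions of the FGF receptor FGFR1. Its cells grew in serum-containing medium and were treated for 24 h with BGJ398 or with DMSO. The dose for BCRF8C was 1.5 nM if the doses are listed in the same order as the lines, which is an assumption. The series holds 2 further SCLL lines, BBC and ZNF, treated in the same way at what would then be 30 and 3 nM. There was 1 library per line and agent, so no ratio within BCRF8C has a replicate, an error or a p-value, and a gene is described by size, as at least 2-fold higher or lower on the (FPKM + 1) scale. Values with BGJ398 may differ from those in DMSO because of the agent or because of the library, and these cannot be told apart.

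FGFR1 is a receptor tyrosine kinase that fibroblast growth factors normally switch on by pairing it at the cell surface. In SCLL a chromosomal break joins the kinase end of FGFR1 to a partner protein that pairs by itself, which leaves the kinase permanently active, and signals run through the RAS and ERK cascade, STAT5, PI3 kinase and SRC family kinases. BCR, a frequent partner, is known for the related fusion BCR-ABL1. BGJ398, also named infigratinib, occupies the ATP pocket of FGFR kinases.

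The lineage of BCRF8C was read from marker genes, since the labels give none. The 6 natural killer (NK) cell markers in the table, of 11 sought, were each above 10 FPKM in both BCRF8C libraries. Gzma, which encodes the cytotoxic protease granzyme A, stood at 887 FPKM in DMSO and 351 with BGJ398. Prf1, the gene of the pore-forming protein perforin, stood at 489 and 42.4 FPKM. Eomes, a transcription factor of cytotoxic lymphocytes, stood at 119.7 and 46.6 FPKM, and the surface receptor genes Klrd1 and Klrb1c lay between 15.5 and 52.8 FPKM in the 2 libraries. Their summed level was 1869 FPKM in BCRF8C in DMSO, 7.54 in BBC and 1055 in ZNF, where only Gzma passed 10 FPKM. Of 23 B lineage markers in the table, 7 were listed at 0 in both BCRF8C libraries, among them the B cell receptor gene Cd79b and the surrogate light chain genes Igll1, Vpreb1 and Vpreb2, and 1 passed 10 FPKM. The T cell receptor gene Cd3d was listed at 0 and Cd3g stood at 0.136 FPKM in DMSO, while Thy1, a surface protein of T and NK cells, stood at 92.3 FPKM and the costimulatory receptor gene Cd28 at 24.2. Of 18 T lineage markers 5 passed 10 FPKM in DMSO. Zeros came only in pairs, since 15529 entries were above 0 in DMSO, with BGJ398 and in both. A 0 may thus mark an entry left out for the line rather than a measured absence, which was not tested. Among other marker lists, summed levels in DMSO were 854 FPKM for stem and progenitor cells, 613 for mast cells, basophils and eosinophils, 433 for erythroid cells and 343 for plasma cells, from 1 to 3 members above 10 FPKM in each. In the first 3 of these lists, 1 member held most of the sum, at 831, 611 and 375 FPKM. The members that passed the filter had medians in DMSO of 0.710 FPKM in the stem list and 0.293 in the mast cell list. Granulocyte and megakaryocyte markers were the lowest of the blood lists at 21.0 and 11.4 FPKM. No cell type is named for the line from these values.

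**Figure D1:**
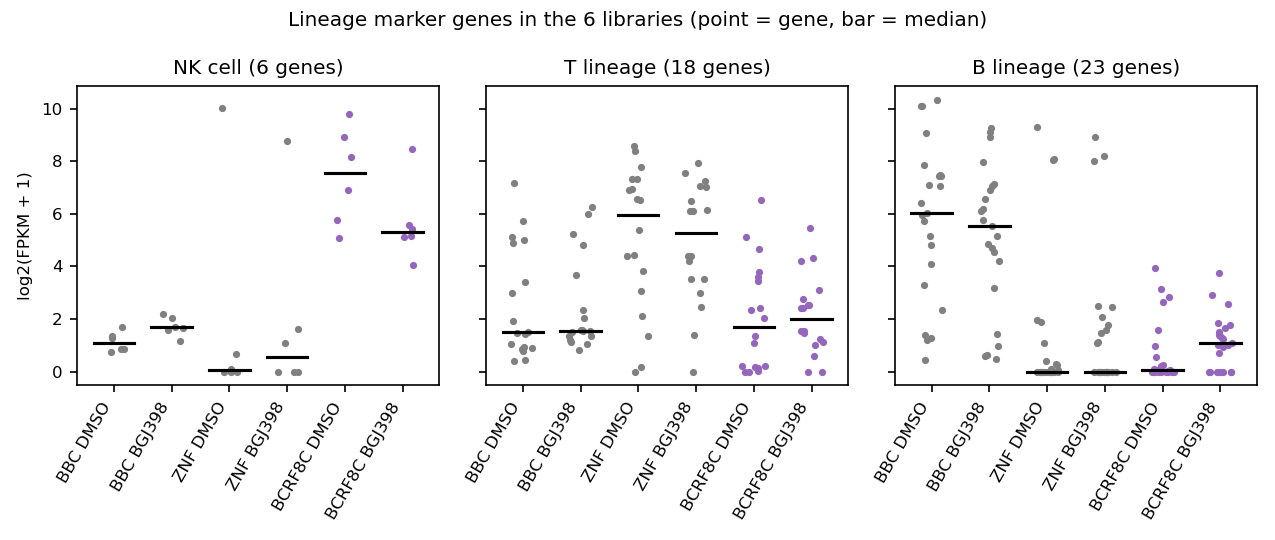
Level of marker genes as log2(FPKM + 1) on the y axis in each of the 6 libraries on the x axis, for NK cell, T lineage and B lineage markers (each point is a gene, each bar the median). The median of the NK markers is highest in the 2 BCRF8C libraries, that of the B lineage markers in BBC and that of the T lineage markers in ZNF.

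Most genes with a clear level in DMSO were lower with BGJ398, and most genes near silence were higher. As deposited, 6012 of 13814 entries (43.5%) were at least 2-fold lower and 3000 (21.7%) at least 2-fold higher, around a median log2 ratio of -0.80. Among the 6823 entries with at least 10 FPKM in DMSO, 5139 were at least 2-fold lower and 58 at least 2-fold higher. Among the 2297 entries under 0.5 FPKM in DMSO, 2279 were at least 2-fold higher, with medians of 0.0921 FPKM in DMSO and 3.04 with BGJ398. An entry under 1 FPKM in DMSO could pass the filter only through its BGJ398 value and so had to be higher with BGJ398, which fixes that share and the direction of every gene named below that passed with under 1 FPKM in DMSO. By the same filter, an entry under 1 FPKM with BGJ398 passed only through DMSO and had to be lower. That fixes the direction of genes named below such as Ier2, Chac1, Galk1, Psmg3, Phpt1 and Snhg9. Of the entries that passed, 176 were under 0.5 FPKM with BGJ398. The table also lists 1233 entries at exactly 0.001 FPKM in DMSO and 147 with BGJ398. After the trend was removed, 2211 entries (16.0%) were at least 2-fold lower and 1853 (13.4%) at least 2-fold higher, around a median of -0.04. After median-of-ratios scaling 2284 were at least 2-fold lower and 3915 higher, and after quantile normalization 2843 and 2439. On the deposited and the trend-removed scale alike, 1688 entries were at least 2-fold lower and 1209 at least 2-fold higher, and 33 that were at least 2-fold lower as deposited were at least 2-fold higher once the trend was removed.

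**Figure D2:**
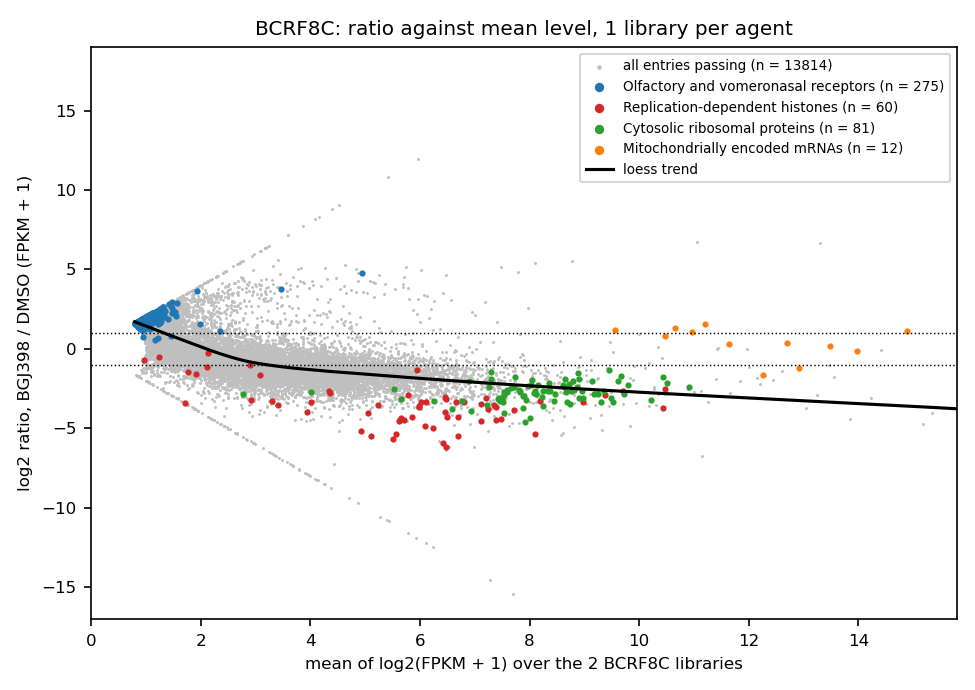
Log2 ratio of BGJ398 over DMSO on the y axis against the mean of log2(FPKM + 1) over the 2 BCRF8C libraries on the x axis. Grey points are the 13814 entries, the black line is the loess trend and dotted lines mark 2-fold. Histone genes (red) lie below the trend, mitochondrially encoded mRNAs (orange) above it, and receptor genes of smell (blue) sit at its low end.

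The entry of the mouse gene Fgfr1 had a low level. Fgfr1 (ENSMUSG00000031565, chromosome 8, 26624126 to 26686186 in NCBIM37) stood at 0.510 FPKM in DMSO and 2.54 with BGJ398, a trend-removed ratio of 0.07. Bcr went from 10.6 to 2.98 FPKM, a log2 ratio of -1.54 as deposited and -0.83 with the trend removed. With 1 value per gene, fusion transcripts and normal ones cannot be told apart. Whether reads of a fusion were counted in these entries is not given in the sources used here. The other receptors of the family were nearly silent in DMSO, with Fgfr2 at 0.125 and Fgfr3 at 0.136 FPKM. Of 16 genes in the FGF list found in the table, 10 passed the filter, and 7 of those were at least 2-fold higher as deposited but 1 with the trend removed. That gene was Fgf9, a ligand gene, which went from 0.771 to 8.23 FPKM. Over all entries 21.7% and 13.4% were at least 2-fold higher on the 2 scales.

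Feedback genes of the ERK cascade, which are switched on by ERK and damp it, had a median below the trend. Of 16 that passed, 7 were at least 2-fold lower as deposited and 2 higher, and with the trend removed 4 were lower and 0 higher (median -0.59). The first share is near the 43.5% over all entries, and the trend-removed one stands beside 16.0%. Etv4, a transcription factor of the ETS family, went from 17.5 to 2.28 FPKM (trend-removed ratio -1.64). Dusp6 (ENSMUSG00000019960, chromosome 10, 98725865 to 98730122 in NCBIM37), a phosphatase that switches off ERK, went from 87.1 to 12.6 FPKM (trend-removed ratio -1.08). The related phosphatase genes Dusp4 (10.3 to 2.72 FPKM) and Dusp5 (30.6 to 6.23 FPKM) were also at least 2-fold lower as deposited, though less than 2-fold below the trend. Spred1, an inhibitor of RAS signalling, followed the trend at 22.5 and 8.24 FPKM.

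Among the immediate early genes, which growth signals switch on within minutes, a few AP-1 and early response genes were far below the trend. Junb (ENSMUSG00000052837, chromosome 8, 87500811 to 87502617 in NCBIM37), a subunit of the transcription factor AP-1, stood at 74.9 FPKM in DMSO and 4.42 with BGJ398, a log2 ratio of -3.81 and a trend-removed ratio of -2.40. Ier2, a nuclear early response gene, went from 23.4 to 0.883 FPKM (trend-removed ratio -2.98), and Fosl2, another AP-1 subunit gene, from 32.4 to 5.81 FPKM (-1.02). The early growth response genes Egr1 and Egr2 were under 1 FPKM in DMSO, and, having passed the filter only through BGJ398, they stood there at 2.88 and 3.83 FPKM. Of 22 members that passed, 10 were at least 2-fold lower and 6 at least 2-fold higher as deposited, and 4 and 1 with the trend removed (median -0.30). The shares that were lower are near those of all entries, 43.5% as deposited and 16.0% with the trend removed, and the shares that were higher stand beside 21.7% and 13.4%. The gene above the trend was Nr4a2, an orphan nuclear receptor, at 1.20 FPKM in DMSO and 5.32 with BGJ398.

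Targets of STAT5 and STAT3, genes that cytokine signals switch on, were mostly lower as deposited. Pim3, a survival kinase gene, went from 29.0 to 2.87 FPKM (trend-removed ratio -1.85). Osm (ENSMUSG00000058755, chromosome 11, 4136423 to 4141029 in NCBIM37), the gene of the cytokine oncostatin M, went from 21.7 to 2.33 FPKM (-1.82), and Ccnd3, which encodes the G1 cyclin D3, from 151 to 14.9 FPKM (-1.50). Socs1, an inhibitor of cytokine signalling, was lower as well (18.8 to 3.10 FPKM), whereas its relative Socs2 stayed above the trend (109 to 39.1 FPKM, trend-removed ratio 0.41). Cish, another SOCS family gene, and the kinase gene Pim1 lay less than 2-fold below the trend, at -0.73 and -0.42. In all, 14 of 17 members were at least 2-fold lower as deposited and 5 with the trend removed (median -0.71). Over all entries the shares were 43.5% and 16.0%. The list's median in DMSO was 21.9 FPKM, and of all entries at 20 to 50 FPKM 77.7% were at least 2-fold lower as deposited. Among receptors, Il2rb, the signalling chain shared by the interleukin 2 and 15 receptors, went from 331 to 33.1 FPKM (trend-removed ratio -1.25). Il2ra, the alpha chain of the interleukin 2 receptor, went from 29.6 to 17.8 FPKM and lay above the trend (0.77).

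Myc (ENSMUSG00000022346, chromosome 15, 61816946 to 61821929 in NCBIM37), a transcription factor that promotes growth, went from 64.4 to 20.01 FPKM, and its trend-removed ratio was 0.00, so it lay on the trend. All 24 targets of MYC that passed were at least 2-fold lower as deposited, and 7 with the trend removed (median -0.57). Over all entries the shares were 43.5% and 16.0%. The list's median in DMSO was 225 FPKM, and of all entries at 100 to 1000 FPKM 93.6% were at least 2-fold lower as deposited. Apex1, a DNA repair endonuclease gene, went from 73.8 to 6.38 FPKM (trend-removed ratio -1.87), and Eif5a, a translation factor gene, from 816 to 46.8 FPKM (-1.86). Ncl and Npm1, which encode the abundant nucleolar proteins nucleolin and nucleophosmin, lay at or above the trend (0.15 and 0.65). In Hnrnpa1, a splicing factor gene, the levels were 244 and 106 FPKM, the highest trend-removed ratio of the list at 0.98.

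Sequence before the start site was read for the genes with an entry in the RefSeq promoter table (9630 of 13628 symbols that passed; assembly GRCm38.p6, another build than that of the deposited table). The E-box CACGTG, which MYC and related factors bind and which reads the same on both strands, was present in the 250 bases upstream for 10 of 22 MYC targets (45.5%), for 9.68% of the 9630 genes and for 6.02% of all 32851 promoters. The promoter of Cdk4, the G1 kinase gene, is shown because it holds 4 copies, in capitals. Its strand is plus and its position chr10:127063285-127063534 in GRCm38.p6.
Cdk4: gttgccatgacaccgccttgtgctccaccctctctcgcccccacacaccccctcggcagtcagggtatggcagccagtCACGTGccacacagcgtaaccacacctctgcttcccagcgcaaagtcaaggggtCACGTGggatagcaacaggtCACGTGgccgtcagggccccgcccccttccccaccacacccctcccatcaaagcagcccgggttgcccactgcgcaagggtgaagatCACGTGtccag
Cdk4 went from 332 to 46.5 FPKM, a log2 ratio of -2.81 and a trend-removed ratio of -0.72. Over all genes the E-box went with a small difference, since the 932 genes with it had a median trend-removed ratio of -0.13 and the 8698 without it -0.05.

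Ribosome biogenesis genes were lower as a group: all 39 were at least 2-fold lower as deposited and 15 with the trend removed, with 38 of 39 below the trend (median -0.87). The lowest trend-removed ratio among them was -2.56. For each list here, the shares of all entries that were lower were 43.5% as deposited and 16.0% with the trend removed. Of all entries at 50 to 100 FPKM in DMSO, 88.4% were at least 2-fold lower as deposited. All 20 aminoacyl-tRNA synthetase genes, which charge tRNA with amino acids, were at least 2-fold lower as deposited and 5 with the trend removed (median -0.69). Mitochondrial ribosomal protein genes were at least 2-fold lower in 75 of 76 as deposited and in 32 with the trend removed (median -0.83). The exception was Mrpl48, which went from 24.1 to 136 FPKM, and the lowest was Mrps12, at 75.8 and 2.55 FPKM (trend-removed ratio -3.12). Cytosolic ribosomal protein genes were at least 2-fold lower in 81 of 81, at a median of -2.70, but with the trend removed their median was -0.32 and 15 were at least 2-fold lower. Eif4ebp1 (ENSMUSG00000031490, chromosome 8, 28370799 to 28386128 in NCBIM37), which encodes a repressor of cap-dependent translation, had 1 of the largest ratios in the library pair, from 72.0 to 2.12 FPKM (log2 ratio -4.55, trend-removed -3.27).

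The amino acid supply genes controlled by ATF4 were the metabolic list farthest below the trend. Of 30 that passed, 24 were at least 2-fold lower as deposited and 1 at least 2-fold higher, and with the trend removed 18 were lower and 1 higher (median -1.17). The shares of all entries that were lower were 43.5% and 16.0%. Atf4 itself, the transcription factor made when amino acids run short, went from 202 to 19.1 FPKM (trend-removed ratio -1.49). Phgdh, the first enzyme of serine synthesis, went from 155 to 13.2 FPKM (-1.73), and Shmt2, which passes the serine carbon to folate in mitochondria, from 189 to 15.1 FPKM (-1.77). Slc7a5, a transporter of large neutral amino acids, went from 54.9 to 4.84 FPKM (-1.90). The stress genes Chac1, a glutathione-degrading enzyme (6.71 to 0.671 FPKM, trend-removed ratio -2.54), and Nupr1, a small chromatin protein (12.3 to 1.31 FPKM, -2.10), were the lowest against the trend. Against these, Slc7a11, the cystine importer, went from 1.30 to 3.59 FPKM, and Slc7a3, a transporter of cationic amino acids, from 0.237 to 5.04 FPKM.

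The element TGATGNAA, the composite site that ATF4 binds with a C/EBP partner, was sought on both strands of the same 250 bases. It was present for 6 of 25 genes of the list with a promoter entry (24%), for 2.76% of the 9630 genes that passed and for 3.45% of all 32851 promoters. The 6 were Asns, Chac1, Nupr1, Pck2, Pycr1 and Slc7a11. Asns, asparagine synthetase, is a known ATF4 target and is shown with 2 of the lowest members and with Slc7a11, which was higher. The match on either strand is in capitals, and the strands and positions in GRCm38.p6 are minus and chr6:7693210-7693459 for Asns, plus and chr2:119350992-119351241 for Chac1, minus and chr7:126625471-126625720 for Nupr1, and minus and chr3:50443614-50443863 for Slc7a11.
Asns: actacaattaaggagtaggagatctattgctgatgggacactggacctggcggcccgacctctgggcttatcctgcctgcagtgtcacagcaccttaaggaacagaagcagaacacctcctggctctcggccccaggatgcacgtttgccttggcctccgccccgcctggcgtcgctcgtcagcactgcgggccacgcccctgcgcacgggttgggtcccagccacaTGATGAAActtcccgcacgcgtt
Chac1: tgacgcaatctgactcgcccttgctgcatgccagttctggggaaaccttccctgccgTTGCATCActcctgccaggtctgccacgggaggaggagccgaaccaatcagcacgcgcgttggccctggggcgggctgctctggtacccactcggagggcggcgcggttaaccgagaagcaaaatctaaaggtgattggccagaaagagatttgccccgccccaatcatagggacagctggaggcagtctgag
Nupr1: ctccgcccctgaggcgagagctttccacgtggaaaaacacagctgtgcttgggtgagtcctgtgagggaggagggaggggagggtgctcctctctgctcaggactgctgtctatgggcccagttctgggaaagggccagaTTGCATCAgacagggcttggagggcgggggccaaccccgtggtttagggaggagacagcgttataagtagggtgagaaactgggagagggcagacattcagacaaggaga
Slc7a11: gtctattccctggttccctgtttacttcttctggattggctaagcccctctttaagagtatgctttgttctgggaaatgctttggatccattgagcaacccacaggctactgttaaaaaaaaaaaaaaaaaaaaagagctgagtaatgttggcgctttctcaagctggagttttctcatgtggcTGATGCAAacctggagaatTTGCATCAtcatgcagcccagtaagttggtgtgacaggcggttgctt
Asns went from 37.0 to 4.199 FPKM (trend-removed ratio -1.62), Pck2, the mitochondrial enzyme that makes phosphoenolpyruvate, from 14.6 to 2.68 FPKM (-1.25), and Pycr1, of proline synthesis, from 8.36 to 3.41 FPKM (-0.44). All of the 6 genes but Slc7a11, which holds 2 copies and had a trend-removed ratio of 0.47, lay below the trend. In the whole list 26 of 30 lay below it. Over all genes the 266 with the element had a median trend-removed ratio of 0.06 and the 9364 without it -0.06.

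Most glycolysis genes were lower as deposited. Of 23, 20 were at least 2-fold lower as deposited and 11 with the trend removed (median -0.94). Over all entries the shares were 43.5% and 16.0%. Pfkl, the liver form of phosphofructokinase, went from 34.0 to 2.08 FPKM (trend-removed ratio -2.43), and Eno1, enolase, from 460.2 to 33.4 FPKM (-1.66). The lactate exporter gene Slc16a3 went from 31.7 to 2.80 FPKM (-1.99) and the glucose transporter gene Slc2a1 from 34.4 to 5.51 FPKM (-1.16). Hk1, a hexokinase gene, and Pdk1, a brake on the use of pyruvate in mitochondria, lay on the trend (0.10 and 0.06). Gapdh was -0.41, less than 2-fold below it. The isoenzyme gene Eno2 was the exception above it, from 0.342 to 4.33 FPKM.

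Most lipid synthesis genes were lower as deposited. Of 24 cholesterol synthesis genes, 23 were at least 2-fold lower as deposited and 7 with the trend removed (median -0.79). The shares of all entries that were lower were 43.5% and 16.0%. Fdps (ENSMUSG00000059743, chromosome 3, 88897514 to 88905881 in NCBIM37), the farnesyl diphosphate synthase gene, went from 78.1 to 3.22 FPKM (trend-removed ratio -2.86), and Srebf2, the master transcription factor of the pathway, from 36.2 to 3.64 FPKM (-1.79). Cyp51, an enzyme of a later step, was within 2-fold of the trend at 0.20. Tm7sf2, a sterol reductase gene, was the exception on both scales, from 2.10 to 7.47 FPKM (1.76). Of 15 fatty acid genes, 13 were at least 2-fold lower as deposited and 5 with the trend removed, led by the desaturase gene Scd2, from 373 to 22.1 FPKM (-2.03). Acss2, which makes acetyl-CoA from acetate, lay above the trend, from 2.31 to 5.598 FPKM (1.15). The sterol element TCACNCCAC was present in 0 of 17 cholesterol genes with a promoter entry and in 1.16% of the 9630 genes.

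**Figure D3:**
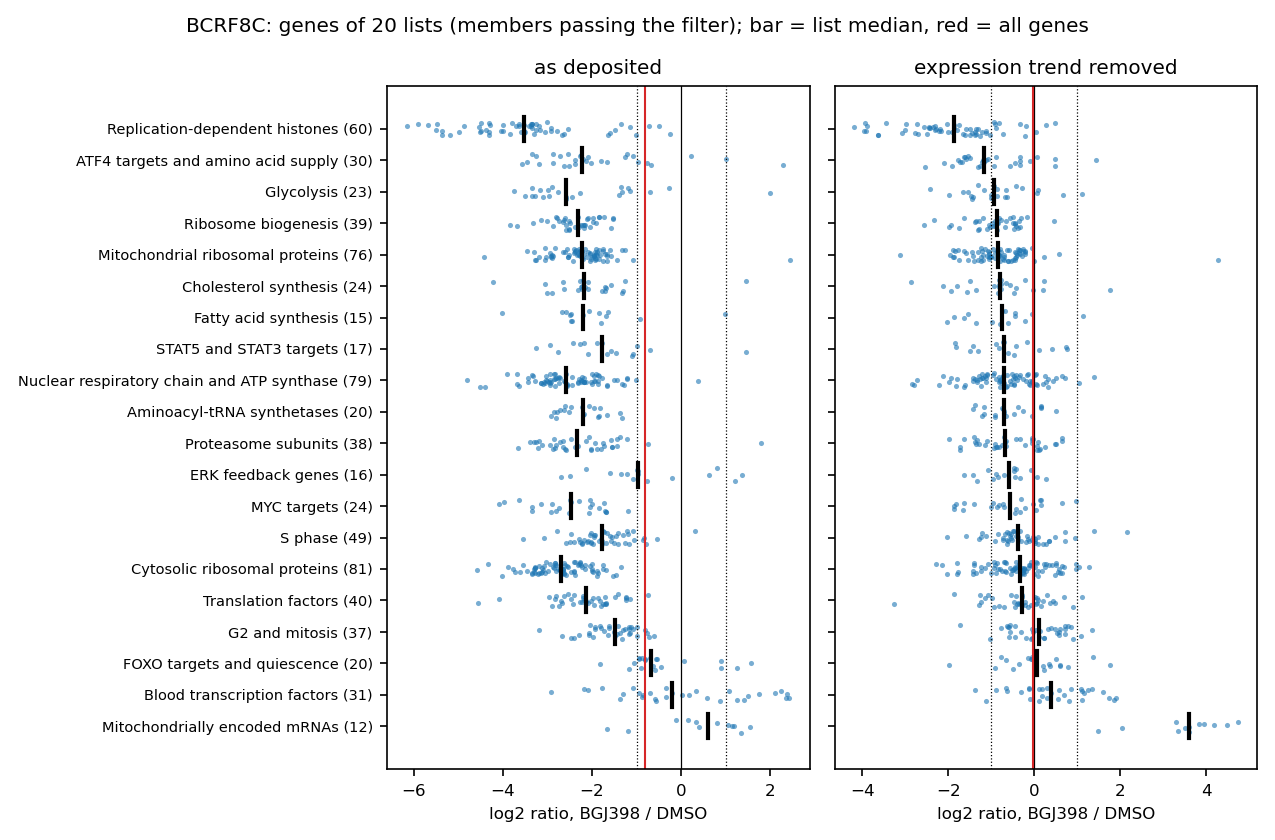
Log2 ratio of each gene (points) of 20 lists in BCRF8C on the x axis, as deposited on the left and with the expression trend removed on the right, with the number of members that passed in brackets. Black bars are list medians, the red line is the median of all 13814 entries and dotted lines mark 2-fold. Histones have the lowest median on both scales, and mitochondrially encoded mRNAs the highest of the 20 with the trend removed.

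Replication-dependent histones, made in S phase to package new DNA, had the lowest median of the pathway lists on both scales. As deposited, 57 of 60 were at least 2-fold lower (median -3.52), and 49 with the trend removed (median -1.86). Over all entries the shares were 43.5% and 16.0%. Hist1h4j (ENSMUSG00000067455, chromosome 13, 21826903 to 21827329 in NCBIM37), a histone H4 gene, went from 754 to 9.54 FPKM, a log2 ratio of -6.16 and a trend-removed ratio of -4.19. Hist1h2bg and Hist1h3c, genes of histones H2B and H3, went from 323 to 5.32 and from 183 to 4.03 FPKM. Summed over the 60 genes and 1 more listed at 0, the level was 31237 FPKM in DMSO and 2709.6 with BGJ398. Histone genes of a type are near-identical copies whose reads may be shared, which makes each single value uncertain, and most of their transcripts lack a poly(A) tail. The RNA was total RNA per the labels, and whether poly(A) RNA was selected is not given in the sources used here. Their median transcript GC content was 56.8%, and with trends on both expression and GC removed the list median was -1.53.

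Other genes of the cell cycle followed the trend more closely. Of 49 S phase genes 44 were at least 2-fold lower as deposited, but 6 with the trend removed and 2 higher (median -0.38). The shares of all entries that were lower were 43.5% and 16.0%. Pold2, a subunit of DNA polymerase delta, went from 92.2 to 6.95 FPKM (trend-removed ratio -2.03), and Cdt1, which loads the replicative helicase, from 29.9 to 4.47 FPKM (-1.29). Ccne2, the gene of cyclin E2, was the exception at 58.3 FPKM in DMSO and 72.4 with BGJ398 (2.17). Slbp, whose protein binds the stem loop at the end of histone mRNAs, went from 215 to 124 FPKM and lay above the trend (1.39).
Of 37 genes of G2 and mitosis 32 were at least 2-fold lower as deposited, and with the trend removed 2 were lower, 2 higher and the median was 0.11. Cdc20, which switches on the anaphase-promoting complex, went from 69.5 to 6.67 FPKM (trend-removed ratio -1.74), while Mki67, the proliferation marker Ki-67, went from 146 to 88.2 FPKM (1.34). Cdkn1b, which encodes the cell cycle inhibitor p27, was level at 39.2 and 41.2 FPKM (1.75).

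Of the BCL2 family, which decides between survival and death at the mitochondrion, 8 of 14 were at least 2-fold lower and 1 higher as deposited, and 3 lower and 2 higher with the trend removed, beside 16.0% and 13.4% of all entries. The 3 lower ones promote death: Bax went from 52.95 to 4.66 FPKM (trend-removed ratio -1.91), Bad from 19.8 to 3.12 (-1.34) and Bak1 from 79.7 to 12.3 (-1.01). The survival genes Bcl2l1, Bcl2 and Mcl1 had trend-removed ratios of -0.81, -0.13 and 0.73, and the death gene Bcl2l11 (BIM) 0.79. The 2 above the trend by at least 2-fold were the survival gene Bcl2l2 (0.0566 to 5.34 FPKM) and the death gene Bid (7.37 to 8.43 FPKM). Of 20 FOXO targets and quiescence genes 3 were at least 2-fold lower and 2 higher as deposited (trend-removed median 0.08). The shares of all entries were 43.5% and 21.7%. Of 20 p53 targets 8 were at least 2-fold lower as deposited, a share near the 43.5% of all entries. With the trend removed 3 were lower and 1 higher (median -0.03), beside 16.0% and 13.4% of all entries. Trp53inp1, a p53 target that promotes autophagy and death, was that higher one, from 10.4 to 20.7 FPKM (2.23).

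The cytotoxic genes that marked the line did not move as 1 block. Prf1 and Nkg7, which encodes a membrane protein of cytotoxic granules, were lower on both scales (trend-removed ratios -1.36 and -1.02). Gzma and Klrd1 were lower as deposited, with log2 ratios of -1.34 and -0.60, but at 1.22 and 1.11 they lay more than 2-fold above the trend. The NK list thus had 5 of 6 members at least 2-fold lower as deposited, and with the trend removed 2 lower and 2 higher. Fewer cells of a type and less RNA per cell cannot be told apart in such bulk libraries. Ly6a (Sca-1), a surface protein of stem cells and activated lymphocytes, went from 831 to 329 FPKM, and B2m, the light chain of MHC class I, was level at 2718 and 2857 FPKM. The interferon list had 11 of 28 members at least 2-fold lower and 3 higher as deposited, and 6 and 4 with the trend removed. Over all entries 43.5% were lower and 21.7% higher as deposited, and 16.0% and 13.4% with the trend removed. The list's share lower as deposited and its share higher with the trend removed are near these. Psmb8 and Psmb9, the immunoproteasome subunit genes, went from 231 to 23.2 and from 72.7 to 6.99 FPKM, while Gbp2, a guanylate-binding protein gene, went from 11.6 to 15.7 FPKM. Irf8, a transcription factor of several blood lineages, went from 77.4 to 9.37 FPKM (trend-removed ratio -1.38), and Myb, a factor of immature blood cells, from 60.3 to 39.7 FPKM (1.17).

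Among genes with at least 10 FPKM with BGJ398, most of those with the largest ratios were low in DMSO. Mid1 (ENSMUSG00000035299, chromosome X, 166123129 to 166443668 in NCBIM37), a ubiquitin ligase of microtubules, stood at 1.43 FPKM in DMSO and 77.0 with BGJ398, a log2 ratio of 5.01 and a trend-removed ratio of 6.24. Zfp488 (ENSMUSG00000044519, chromosome 14, 34780256 to 34791950 in NCBIM37), a zinc finger gene, went from 9.78 to 253 FPKM (4.56 as deposited, 6.33 with the trend removed). Tlr13, a receptor for bacterial ribosomal RNA, was almost silent in DMSO at 0.0128 FPKM and stood at 26.9 with BGJ398. The next were Fstl1 (3.31 to 89.8 FPKM), a secreted glycoprotein gene, Fgd4 (7.15 to 152), an exchange factor of the GTPase CDC42, and Pkib (2.54 to 60.5), an inhibitor of protein kinase A. Zfp353, Hsd3b2, Caps2, Dux, Tmc5, Slc1a3, Nkain3 and Prl8a1 were also among the 15, with log2 ratios from 3.69 to 4.36. Their known sites of expression differ widely: Prl8a1 belongs to the prolactin family of the placenta, Slc1a3 is a glutamate transporter of glia, and Hsd3b2 is an enzyme of steroid synthesis. Mid1, Zfp488, Fstl1, Fgd4, Pkib, Zfp353, Hsd3b2, Caps2 and Prl8a1 were also at least 2-fold higher as deposited in both BBC and ZNF. Dux, Tmc5 and Slc1a3 were so in ZNF but not in BBC, and Tlr13 in BBC but not in ZNF. Nkain3 did not pass the filter in either.
With the trend removed, Appl2, Hexdc, Sfi1, Wdr31 and Ssbp2 entered the first 15. Appl2 (ENSMUSG00000020263, chromosome 10, 83062778 to 83111483 in NCBIM37), an adaptor protein of endosomes, was well above 10 FPKM already in DMSO and went from 24.4 to 286 FPKM (log2 ratio 3.50). Ssbp2, a single-stranded DNA binding protein gene, went from 32.0 to 272 FPKM, and Hexdc, a hexosaminidase gene, from 20.02 to 217 FPKM. Chosen after its values were seen, Ccrn4l (nocturnin, a circadian metabolic enzyme) went from 36.0 to 139.9 FPKM.

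Among named genes with at least 10 FPKM in DMSO, the lowest ratios as deposited outside the histones were those of Snhg9, Uqcr11, Rpl18 and Eif4ebp1. Snhg9, a short host gene of small nucleolar RNA, stood at 32.2 FPKM in DMSO and was listed at 0.001 with BGJ398. Uqcr11, a small subunit of respiratory complex III, went from 518 to 17.7 FPKM, and Rpl18, a ribosomal protein gene, from 1193 to 48.5 FPKM. With the trend removed, Galk1, the first enzyme of galactose use (18.8 to 0.534 FPKM), Psmg3, a proteasome assembly chaperone (11.2 to 0.461), and Phpt1, a histidine phosphatase (12.6 to 0.565), joined them.

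Genes of the mitochondrion divided by the genome that encodes them. Of 79 nuclear genes of the respiratory chain and ATP synthase, 78 were at least 2-fold lower as deposited and 27 with the trend removed (median -0.70). Over all entries the shares were 43.5% and 16.0%. Of 12 mRNAs made inside mitochondria, 5 were at least 2-fold higher and 2 at least 2-fold lower as deposited, and all 12 were at least 2-fold above the trend (median 3.61). mt-Nd2, a subunit of complex I, went from 1382 to 4043 FPKM, and mt-Co1, a subunit of complex IV, was level at 16707 and 15334 FPKM. mt-Co3 (11639.7 to 5072 FPKM) and mt-Nd3 (8723 to 2767 FPKM) were the 2 lower ones. mt-Atp8 overlaps mt-Atp6 and shares the locus of mt-Co3 in the table, so the values of those 3 are uncertain. Summed, the 12 stood at 82224 FPKM in DMSO and 103937 with BGJ398. With unnamed models and small RNAs left out, the 10 highest genes in DMSO were mt-Rnr1, mt-Atp8, mt-Co1, mt-Co3, mt-Co2, mt-Nd3, mt-Nd1, the translation elongation factor gene Eef1a1, the histone gene Hist1h4d and the ribosomal protein gene Rps26. With BGJ398 they were mt-Atp8, mt-Rnr1, mt-Co1, mt-Co2, mt-Nd1, mt-Co3, mt-Nd2, mt-Cytb, mt-Atp6 and B2m. Few nuclear genes reach such levels, so the trend there rests on few points. Their median GC content was 36.5%.

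Classes of transcript differed too. The 158 small nucleolar RNA entries had medians of 174 FPKM in DMSO and 16.2 with BGJ398, and 123 of them were at least 2-fold lower and 25 higher as deposited, and 76 lower and 38 higher with the trend removed, beside 16.0% and 13.4% of all entries. The 275 genes of olfactory and vomeronasal receptors that passed, of 432 in the table, went from a median of 0.0707 to 2.76 FPKM. Nearly silent in DMSO, most passed the filter only through BGJ398, so that direction is set by the filter. With the trend removed 44 of them were at least 2-fold higher, a share near the 13.4% of all entries. Such receptor genes belong to large families of similar copies, so single values are uncertain.

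The trend-removed ratio also went with base composition. Genes were split by transcript GC content into 10 groups of equal size. In the group of lowest GC content (median 39.0%) the median ratio was 0.38, and in the highest (59.3%) it was -0.53. Across 13007 genes of BCRF8C with a matched transcript (94.2%) the Spearman correlation was -0.32. The same correlation was -0.20 in BBC and -0.04 in ZNF, and genes are not independent replicates, so no p is given. What part this has in the ratios of single genes was not tested, but removing a further trend on GC left 1484 entries at least 2-fold lower and 1784 at least 2-fold higher of 13007.

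**Figure D4:**
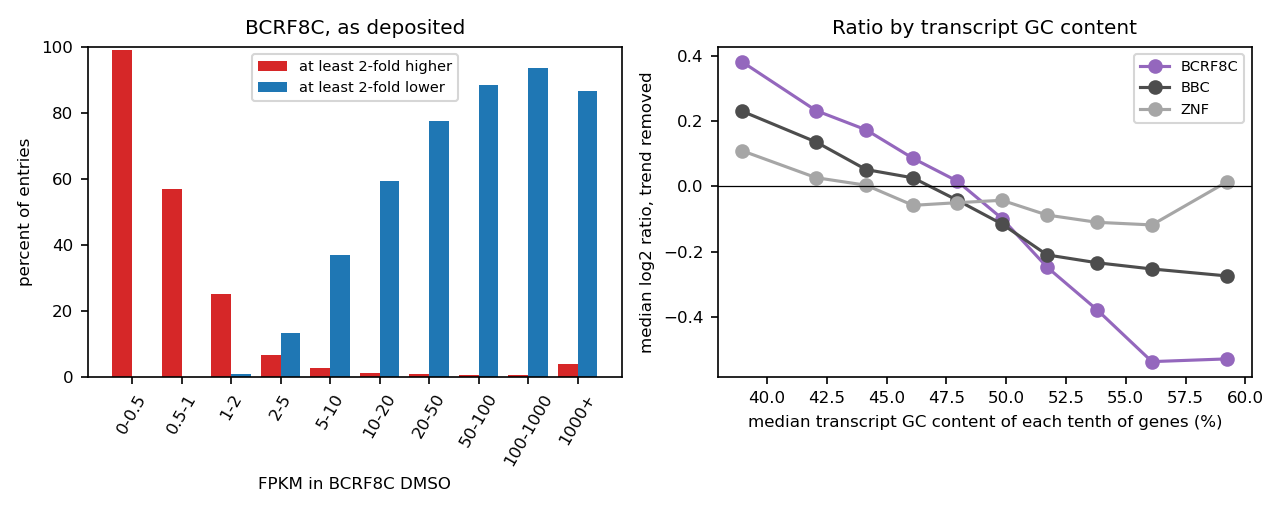
Left, percent of entries at least 2-fold higher (red) or lower (blue) as deposited on the y axis, by their FPKM in BCRF8C DMSO on the x axis. Right, median trend-removed log2 ratio on the y axis in 10 equal groups of genes by transcript GC content on the x axis, for the 3 lines. The share that is higher drops from 99.2% to under 4% as the level rises, and the slope on GC content is steepest in BCRF8C.

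Set beside the other lines, BCRF8C had more entries at least 2-fold higher as deposited than either. Of the 3000 such entries in BCRF8C, 2279 had under 0.5 FPKM in DMSO and 313 had 0.5 to 1 FPKM. Entries under 1 FPKM in DMSO passed the filter only through BGJ398, which fixed their direction. As deposited, 45.0% of 14765 entries were at least 2-fold lower in BBC and 16.3% of 12417 in ZNF, and 8.79% and 13.2% were at least 2-fold higher. With the trend removed, 12.3% and 5.69% were lower and 12.5% and 10.5% higher. Of 11148 symbols that passed in all 3 lines, 5753 were at least 2-fold lower in BCRF8C, and 1420 of these (24.7%) were also at least 2-fold lower in both others, which is 89.1% of the 1593 symbols lower in both others. In the opposite direction it was 374 of 1316 (28.4%), or 94.2% of the 397 higher in both others. The 89.1% stands beside 5753 of all 11148 symbols lower in BCRF8C, and the 24.7% beside 1593 of 11148 lower in both others. For the symbols that were higher, the 94.2% stands beside 1316 of 11148 and the 28.4% beside 397 of 11148. A limma test of each gene's trend-removed ratio in BCRF8C against the mean of BBC and ZNF found 0 of 14232 genes (0%) at an adjusted p under 0.05, with 942 at an unadjusted p under 0.05. The smallest adjusted p was 0.147. That test has 1 residual degree of freedom before pooling over genes and takes the lone line to vary like the other 2. In simulated ratios whose spread in each gene was taken from BBC and ZNF, it recovered 0% of genes shifted by 2, 4, 8 or 12 on the log2 scale, and with 1 spread shared by all genes 98% at a shift of 2. Neither spread is known to be that of the real genes, since the first rests on 2 ratios per gene and the second was set by hand. With 1 residual degree of freedom, a count of 0 from this test does not show that the lines acted alike.
The histone list had trend-removed medians of -1.86 in BCRF8C, -0.88 in BBC and -0.77 in ZNF, and the ATF4 list -1.17, -0.93 and -1.04. For MYC targets the medians were -0.57, -1.47 and -0.17, and for mitosis genes 0.11, 0.36 and -0.88. STAT5 and STAT3 targets had medians of -0.71, 0.33 and -0.16, and immediate early genes -0.30, 0.33 and 0.54.
Junb went from 44.4 to 15.4 FPKM in BBC and from 10.99 to 7.65 in ZNF, and its trend-removed ratio in BCRF8C (-2.40) was -2.43 relative to theirs on the log2 scale (SE 0.47, limma adjusted p = 0.677). Ier2 went from 10.2 to 3.19 FPKM in BBC and from 6.22 to 4.19 in ZNF, a difference of -2.61 (SE 0.49, limma adjusted p = 0.677). Zfp488 went from 65.5 to 231 FPKM in BBC and from 14.8 to 143 in ZNF, so it was higher with BGJ398 in each line. Kit, the stem cell factor receptor gene, stood at 1.07 and 1.07 FPKM in BBC, at 1.64 and 1.30 in ZNF, and at 0.916 and 6.32 in BCRF8C, a difference of 2.26 (SE 0.48, limma adjusted p = 0.693).

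**Figure D5:**
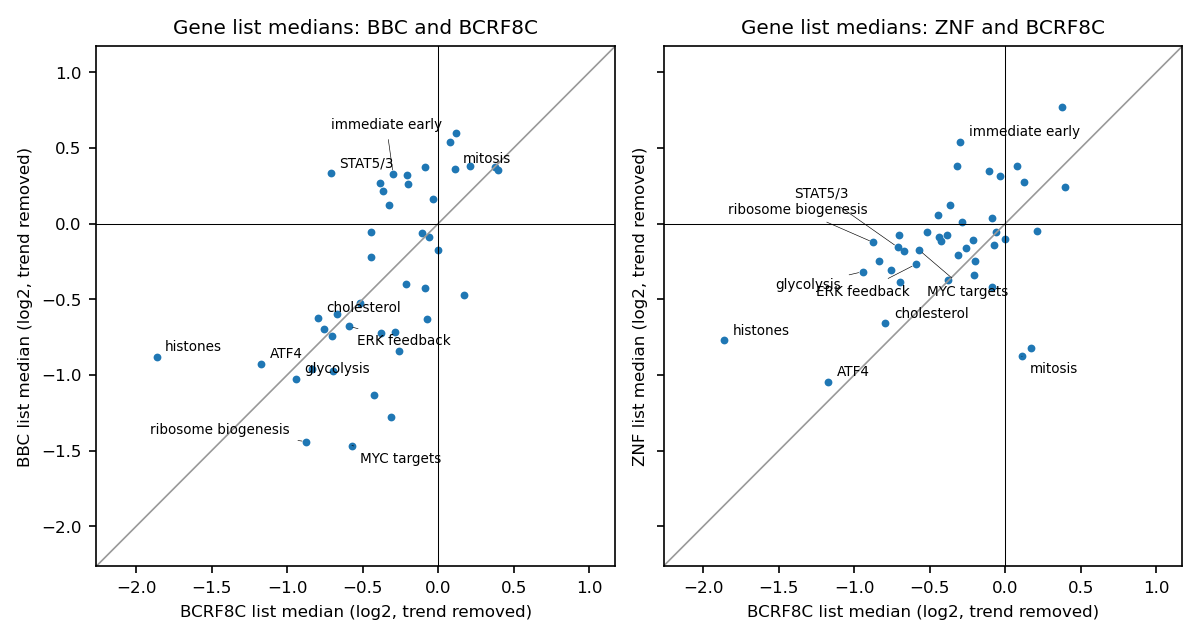
Median trend-removed log2 ratio of each pathway list with at least 10 members, in BCRF8C on the x axis and in BBC (left) or ZNF (right) on the y axis, with the line of equal values in grey. The list of mitochondrially encoded mRNAs lies outside the axes (3.61 in BCRF8C, 1.48 in BBC and 1.57 in ZNF) and is not drawn. Histones lie left of that line in both panels, with a median of -1.86 in BCRF8C.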

How the data were processed

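RNA of the BCRF8C line was sequenced from 1 library with BGJ398 and 1 with DMSO, beside 4 libraries of 2 other lines. The authors deposited 1 table of FPKM values with 17169 entries. The tools bcl2fastq and TopHat2 (2.0.12) and the build NCBIM37 are named per the submitters' processing notes. Not given in the sources used here are the FPKM program, its annotation, strandedness and gene filter, and the depth is unknown, so no counting error is given. The labels name no repeat cultures.

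Entries averaging at least 1 FPKM across both libraries were analysed as log2(FPKM + 1), as deposited and after subtracting a loess trend (R 4.3.3, span 0.75, degree 1, symmetric family). Where entries shared a symbol, lists and named genes used the one highest on average over the 6 libraries. The members and the 58 gene lists were chosen with earlier results of these data known. Named were the 15 largest falls (at least 10 FPKM in DMSO) and 15 largest rises (at least 10 FPKM with BGJ398) on each scale, the 10 highest genes per library, and list members as examples. Unnamed models, pseudogenes, receptor families and small RNA were counted only. A few genes the rule would name are not reported here. Ratios of the 3 lines were compared with limma (version 3.58.1; lmFit and eBayes, two-sided, Benjamini-Hochberg), which on simulated data recovered shifts only where all genes shared 1 spread. Transcript GC content came from GENCODE vM21, and promoters from RefSeq (GRCm38.p6). Alternatives were other scalings, pseudocounts of 0.1 and 5 FPKM, filters of 5 FPKM, of 0.1 FPKM in each library and none, and a span of 0.3. A trend on GC content was added after seeing the data.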

Additional observations from a re-analysis of the deposited data

Results flagged for a closer look

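A few named genes went at least 2-fold one way in BCRF8C and at least 2-fold the other way in both other lines, as deposited. Slc43a3, a purine transporter gene, had a log2 ratio of 2.21 in BCRF8C (0.0219 to 3.73 FPKM) against -1.73 in BBC and -1.27 in ZNF. Slc7a3, the cationic amino acid transporter gene, had 2.29 against -1.72 and -2.39. Atp13a2, a lysosomal ATPase gene, had 1.28 (0.492 to 2.62 FPKM) against -1.88 and -1.24. In the opposite direction Cdk14, a cyclin-dependent kinase gene, had -1.28 (108 to 44.1 FPKM) against 1.24 and 2.25, and Lrp11, a membrane protein gene, had -1.30 (16.4 to 6.07 FPKM) against 1.11 and 1.66. None of the 5 passed the limma test of the line difference on trend-removed ratios, with adjusted p from 0.693 to 0.755 and unadjusted p from 0.0166 for Slc7a3 to 0.0928 for Atp13a2. Slc43a3, Slc7a3 and Atp13a2 were under 1 FPKM in DMSO and passed the filter in BCRF8C only through BGJ398, so that their direction there was fixed by the filter. With the trend removed, BCRF8C ratios were 0.96 for Slc43a3, 1.44 for Slc7a3, 0.13 for Atp13a2, -0.18 for Lrp11 and 0.61 for Cdk14, the last above 0 as in BBC (2.45) and ZNF (2.28), and Slc7a3 alone was at least 2-fold from the trend. A further 5 entries met the same description and are unnamed gene models.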

How the results depend on the processing

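The count of entries at least 2-fold higher, 3000 of 13814 as deposited, was 1853 with the expression trend removed and 1959 with a trend of span 0.3. It was 1784 of 13007 with trends on expression and GC content removed (chosen after seeing the data) and 704 with a pseudocount of 5 FPKM. Filters that kept fewer entries gave 466 of 8421 at a mean of at least 5 FPKM and 1786 of 12482 with at least 0.1 FPKM in each library. The count at least 2-fold lower, 6012 as deposited, was 2211, 1904 and 1484 on the first 3 of these, 2843 after quantile normalization and 2284 after median-of-ratios scaling. Under the other alternatives each count stayed within 1.5 times. The count lower at a mean of at least 5 FPKM, 5439, was out of 8421 entries, so its share was larger than as deposited. The limma test of the line difference gave 0 genes under 6 of its 7 alternatives and 125 on ratios as deposited (44 higher and 81 lower in BCRF8C), where the fit took all genes to share 1 spread. That test recovered no simulated shift when each gene's spread was taken from its 2 ratios in BBC and ZNF. Such a spread is a rough estimate, and no conclusion on stability is drawn from the counts of 0. The cause of these shifts was not tested. Of 110 named genes at least 2-fold apart as deposited, 75 were so with the trend removed in the same direction, 18 were under 2-fold and 17 changed sign. No named gene changed sign with median-of-ratios scaling. A pseudocount or a filter cannot change the sign of a single gene's ratio, so those alternatives do not test it. Of 41 list medians at least 2-fold from 0, 4 were so with the trend removed. At a mean of at least 5 FPKM these list medians changed sign: FGF receptors and ligands -0.87, Granulocyte -0.13, Monocyte, macrophage and dendritic cell -0.61 and Stem and progenitor -1.40. With the expression trend removed these genes changed sign: Cdk14 0.61, Cyp51 0.20, Eomes 0.57, Gzma 1.22, Hk1 0.10, Hnrnpa1 0.98, Klrb1c 0.43, Ly6a 1.20, Mcl1 0.73, Myc 0.0031, Ncl 0.15, Npm1 0.65, Pdk1 0.065, Socs2 0.41, Thy1 0.79, mt-Co3 2.05 and mt-Nd3 1.48. With the expression trend removed these list medians did: G2 and mitosis 0.11 and NK cell 0.50. With a trend of span 0.3 these genes changed sign: Cdk14 0.56, Cyp51 0.15, Eomes 0.52, Fgfr1 -0.031, Gzma 1.11, Hk1 0.13, Hnrnpa1 0.94, Klrb1c 0.46, Ly6a 1.11, Mcl1 0.69, Ncl 0.10, Npm1 0.56, Pdk1 0.10, Socs2 0.36, Thy1 0.74, mt-Co3 1.61 and mt-Nd3 1.11. With a trend of span 0.3 these list medians did: G2 and mitosis 0.12, MHC class II 0.063, NK cell 0.49 and Monocyte, macrophage and dendritic cell -0.021. With trends on expression and GC removed these genes changed sign: Cdk14 0.45, Cyp51 0.15, Eomes 0.94, Gzma 1.07, Hk1 0.58, Hnrnpa1 0.83, Klrb1c 0.37, Lrp11 0.13, Ly6a 1.25, Mcl1 0.81, Myc 0.34, Npm1 0.43, Pdk1 0.023, Pim1 0.036, Socs2 0.32, Thy1 1.24, mt-Co3 1.68 and mt-Nd3 0.88. With trends on expression and GC removed these list medians did: G2 and mitosis 0.019, MHC class I 0.43, MHC class II 0.21, Cytoskeleton 0.39 and NK cell 0.49. After quantile normalization these genes changed sign: Cdk14 0.44, Eomes 0.40, Gzma 0.89, Hk1 0.0047, Hnrnpa1 0.89, Klrb1c 0.36, Ly6a 0.93, Mcl1 0.56, Npm1 0.38, Socs2 0.21, Thy1 0.64 and mt-Co3 0.48. After quantile normalization these list medians did: NK cell 0.38. No paired analysis was possible because the labels give no replicate numbers that differ and each line and agent has 1 library, for which reason leaving out a replicate was not run either. Depth is unknown, so no limit from counting can be set.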

Other observations

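Several further groups of genes were lower as deposited, by counts that shrank once the trend was removed. Over all entries, 43.5% were at least 2-fold lower as deposited, and with the trend removed 16.0% were lower and 13.4% higher. Of 38 proteasome subunit genes, which build the protein-degrading complex, 36 were at least 2-fold lower as deposited and 11 with the trend removed (median -0.67). Of 20 genes of the TCA cycle 18 were lower and 4 with the trend removed (-0.52). Of 24 genes of purine and pyrimidine synthesis 22 were lower and 4 with the trend removed (-0.31). All 21 chaperonin and heat shock genes were lower, 4 with the trend removed (-0.43). Of 26 cytoskeleton genes 22 were lower, and with the trend removed 4 were lower and 1 higher around a median of 0.00. Splicing factor genes were lower in 51 of 61 and had 8 above and 7 below the trend by at least 2-fold (-0.09).

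Of the transcription factors of blood cells, 10 of 31 were at least 2-fold higher and 7 lower as deposited, and 10 higher and 2 lower with the trend removed (median 0.39). Over all entries 21.7% were higher and 43.5% lower as deposited, and 13.4% and 16.0% with the trend removed. Mecom, a factor of blood stem cells, went from 0.505 to 6.67 FPKM, Ebf1, a factor of early B cells, from 0.454 to 6.48 FPKM, and Meis1, a partner of HOX proteins, from 0.200 to 5.39 FPKM. Each was under 1 FPKM in DMSO and passed the filter only through BGJ398, which fixed its direction. Zeb2, a repressor of the zinc finger homeobox class, started from 4.79 FPKM and reached 9.65.

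Chosen after their values were seen, 2 unnamed gene models on chromosome 2 were among the 3 entries with the largest FPKM gains, the other being mt-Atp8. Gm10800 went from 1013 to 100910.0 FPKM, which exceeds every other entry of the BGJ398 library, and Gm10801 from 206 to 21843 FPKM. In ZNF, Gm10800 went from 5651 to 152662 FPKM, and in BBC it stood at 62590.2 FPKM in DMSO and was listed at 0 with BGJ398. Whether that 0 is a measured absence or a value left out was not tested.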
